A study of Mus musculus with 6 samples.

Results

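The TREM receptors, the related receptor Tarm1 and the signalling adaptors that serve them were examined in thioglycollate-elicited peritoneal cells of mice with and without FOXO3. The 8 genes, Trem1, Trem2, Trem3, Treml2, Treml4, Tarm1, Tyrobp and Hcst, were taken by name from the 54648 gene symbols of the deposited table, and all 8 were found. They were chosen by family and adaptor use, with their levels and log2 fold changes between FOXO3 KO and WT libraries already known, so these differences are given as descriptions, without a test. RNA-seq had been carried out on 3 WT and 3 FOXO3 KO libraries, called WT 1 to 3 and FOXO3 KO 1 to 3. The study asked which transcripts of macrophages depend on FOXO3, a forkhead transcription factor. Both groups were C57BL/6 mice aged 6 to 8 weeks on standard chow, males and females, that had received 3% thioglycollate solution into the abdomen, an irritant that recruits monocytes which then become macrophages. Cells were collected 4 days later as a mixed peritoneal population that was not sorted by any step given in the methods. The FOXO3 KO mice were homozygous, and the methods name no Cre or tissue-specific allele. Nothing in the sources used here says that each library came from a separate animal, so p-values measure only the spread between these libraries.

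TREM receptors are cell-surface proteins of myeloid cells with an immunoglobulin-like domain and, in most, no signalling motif of their own. TREM1 amplifies inflammatory responses of neutrophils and monocytes, whereas TREM2 senses lipids and lipoproteins and sustains the lipid-handling programme and survival of tissue macrophages. Most of them signal through DAP12, encoded by Tyrobp, whose immunoreceptor tyrosine-based activation motif (ITAM) recruits the kinase SYK; DAP10, encoded by Hcst, recruits phosphoinositide 3-kinase and is the partner of the receptor NKG2D. Tarm1 is an activating receptor of the same general build that couples to the Fc receptor gamma chain instead.

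In the GENCODE M21 annotation of GRCm38 (mm10, the build named in the submitters' processing notes), 5 of the genes lie on the plus strand of chromosome 17. They are Trem1 (chr17:48232768-48246924), Trem3 (chr17:48247777-48258841), Treml4 (chr17:48264295-48275360), Treml2 (chr17:48299498-48312533) and Trem2 (chr17:48346401-48354147), which together span 121380 bp, with 852 bp between Trem1 and Trem3. Tarm1 lies on the minus strand of chromosome 7 (chr7:3486500-3502624), far from the adaptor pair. Tyrobp (chr7:30413760-30417585, plus strand) and Hcst (chr7:30417712-30419854, minus strand) face each other tail to tail, with 126 bp between their 3′ ends.

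Promoter sequences were taken from RefSeq (GRCm38.p6), which matched 5 of the 8 genes: Trem1, Trem2, Treml4, Tarm1 and Hcst. The 250 bases before the RefSeq start site are shown for the 3 matched receptors that were higher in FOXO3 KO cells and for Trem2, a gene of the same cluster that was not; capitals mark GAGGAA on either strand, a short core of the site of the myeloid factor PU.1.
Trem1 promoter, chr17:48232489-48232738, plus strand: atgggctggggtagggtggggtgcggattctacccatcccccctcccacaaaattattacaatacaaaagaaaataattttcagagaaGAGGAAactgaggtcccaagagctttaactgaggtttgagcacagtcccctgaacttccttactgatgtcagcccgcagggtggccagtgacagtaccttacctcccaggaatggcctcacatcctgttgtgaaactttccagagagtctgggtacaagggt
Treml4 promoter, chr17:48264045-48264294, plus strand: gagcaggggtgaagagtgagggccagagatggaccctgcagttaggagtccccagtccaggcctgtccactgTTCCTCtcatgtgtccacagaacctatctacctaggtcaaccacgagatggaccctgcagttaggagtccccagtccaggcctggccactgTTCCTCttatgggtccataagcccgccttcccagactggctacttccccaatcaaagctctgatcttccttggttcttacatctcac
Tarm1 promoter, chr7:3502625-3502874, minus strand: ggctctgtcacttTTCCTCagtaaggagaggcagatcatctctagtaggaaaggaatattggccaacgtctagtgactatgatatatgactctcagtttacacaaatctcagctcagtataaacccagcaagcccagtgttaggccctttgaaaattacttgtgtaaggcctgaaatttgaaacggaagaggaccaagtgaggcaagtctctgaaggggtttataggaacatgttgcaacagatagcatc
Trem2 promoter, chr17:48346151-48346400, plus strand: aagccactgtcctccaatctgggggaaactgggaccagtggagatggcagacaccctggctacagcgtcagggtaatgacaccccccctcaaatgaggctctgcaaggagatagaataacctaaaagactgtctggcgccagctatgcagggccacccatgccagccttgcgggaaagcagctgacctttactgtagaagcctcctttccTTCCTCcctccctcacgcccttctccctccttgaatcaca
GTAAACA, the FoxO motif, was searched on both strands and was in none of the 5 promoters, beside 3.17% of all 32851 promoters of that length. The longer PU.1 motif GAGGAAGT was also in none of them, beside 2.44% of all promoters. GAGGAA, which overlaps it and was added after the longer motif had no match, occurred 1 time each in the Trem1, Tarm1 and Trem2 promoters and 2 times in that of Treml4, and not in that of Hcst; 23.3% of all promoters held it. These matches are descriptions of letters in a window: the higher receptors and Trem2 held the short core alike, and no binding was measured.

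The targeted gene was not low in all the libraries labelled as knockouts. Foxo3 stood at 117, 107 and 73.1 CPM (counts scaled to a common library size after TMM, the scale of all levels here unless stated) in WT 1, WT 2 and WT 3, at 4.71 in FOXO3 KO 1 and 4.29 in FOXO3 KO 3, but at 104 in the library labelled FOXO3 KO 2. That library lay at the WT level, so each member is given with and without it. WT 3 also stood apart. Its Pearson correlations with the other libraries were 0.917 to 0.951, on log CPM over the genes that passed the filter on low counts. It held Xist at 871 CPM as well as the Y-linked gene Ddx3y at 23.7 CPM. Its markers of resident peritoneal macrophages summed to 3830 CPM, beside 120 to 451 CPM in the other 5 libraries. Xist was at 1130 CPM in FOXO3 KO 3 and at or below 0.177 CPM in the remaining 4 libraries. Library totals were between 28083393 and 36424117 counts.

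Markers were used to check what the cells were. Of 12 macrophage markers, all were tested and none passed; their summed level was 15500 to 20400 CPM in WT and 17200 to 19200 CPM in FOXO3 KO libraries, with the lysozyme gene Lyz2 between 7750 and 11400 CPM and Adgre1, which encodes F4/80, between 693 and 920 CPM. Defining macrophage markers were thus abundant in all 6 libraries. Markers of B cells (3680 CPM in sum against 202 to 836), T cells (129 against 23.5 to 51.8) and mast cells (788 against 101 to 297) had their highest sums in WT 3. Those of monocytes (3210 to 9470 CPM), NK cells (36.9 to 60.5), dendritic cells (50.0 to 173, the highest being WT 3 through Ccr7 alone) and eosinophils (37.4 to 95) had counts in every library. None of these genes passed edgeR's quasi-likelihood test over all genes. Of 8 dendritic cell markers, 7 had a log2 fold change above 0, as 48.8% of all genes tested had. Their median was 0.70, and 0.75 without WT 3. In that test 3 of the 8 had an unadjusted p under 0.05 with a fold over 1.5, as 3.28% of all genes had upward. They were Siglech (1.43 ± 0.45), Itgae (1.14 ± 0.46) and Xcr1 (1.12 ± 0.45), while Ccr7 was at -1.32 ± 0.90. The marker lists were made with earlier results of these data known, so these counts are no independent support. The part of dendritic cells in the members' levels was not tested.

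Tyrobp was the most abundant member and Trem3 the least, when levels were set per kilobase of the longest annotated coding transcript. The median over the 6 libraries was 1300 CPM per kb for Tyrobp, 543 for Trem2, 38.6 for Hcst and 5.38 for Treml2. It was 0.71 CPM per kb for Treml4, 0.53 for Trem1, 0.371 for Tarm1 and 0.337 for Trem3. The first 5 genes of this order, down to Treml4, were separated step by step by ranges that did not overlap, in the same order in 6 of 6 libraries; Treml4 and Trem1, Trem1 and Tarm1, and Tarm1 and Trem3 overlapped, the first of each pair being higher in 4, 3 and 3 of the 6 libraries.

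**Figure D1:**
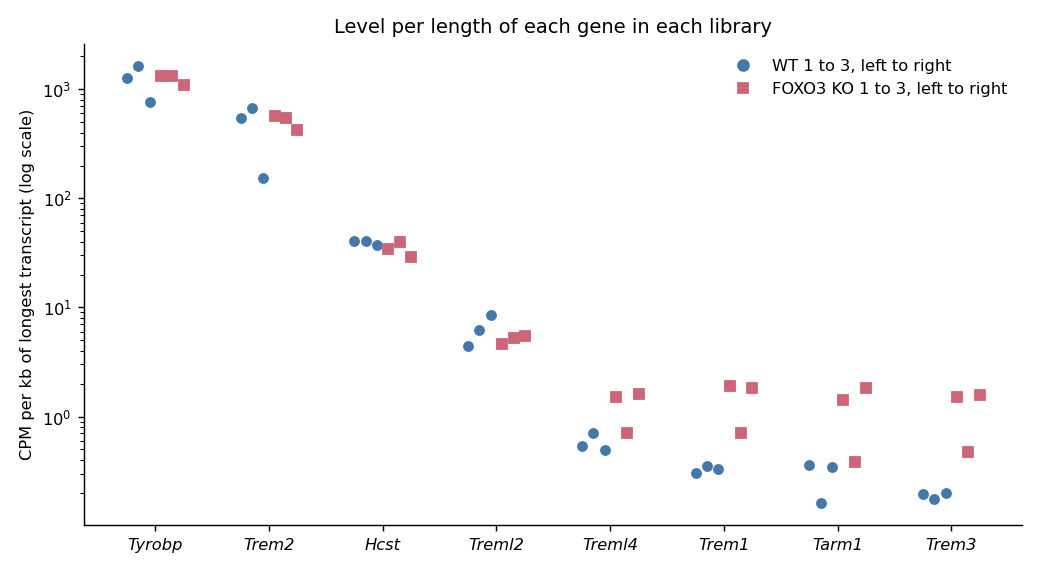
Level of the 8 genes in CPM per kilobase of longest coding transcript on a log axis, 1 point per library, WT and FOXO3 KO marked apart. Tyrobp (772 to 1640) and Trem2 (154 to 674) lie far above Treml4, Trem1, Tarm1 and Trem3, which share the range below 2 CPM per kb.

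Trem2, the lipid-sensing receptor, exceeded Trem1 per kilobase by 1790 times in WT 1, 1910 times in WT 2 and 471 times in WT 3. The same ratio was 298 in FOXO3 KO 1, 763 in the library labelled FOXO3 KO 2 and 234 in FOXO3 KO 3. Trem1 transcripts were thus rare in every library, and its values rest on 30 to 35 counts in WT libraries and 58 to 181 in FOXO3 KO libraries.

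Of the 8 genes, 4 (Trem1, Trem3, Treml4 and Tarm1) were higher in all 3 FOXO3 KO libraries than in all 3 WT libraries, a pattern held by 7.0% of the 15608 genes tested; since the genes were gathered with this contrast known, nothing is read from that count. The same 4 were the members with FOXO3 KO 1 and 3 above all WT libraries, as 10.8% of genes were. No member was lower in all 3 FOXO3 KO libraries, as 5.36% of genes were. In edgeR's quasi-likelihood test, with an FDR below 0.05 and a change of more than 1.5-fold required, 0 of the 15608 genes (0.0%) passed in either direction, while 887 had an unadjusted p under 0.05; edgeR's likelihood ratio test called 109 and DESeq2 124. With the library labelled FOXO3 KO 2 left out, 0 of 16217 genes passed, and with WT 3 left out as well, 4 of 15597 did (0.0256%): Foxo3, the neutrophil receptor gene Cxcr2, Ifitm1 and Amd2, none of them a member. Whether members were among the 109 and 124 genes of the other tests is not given here, since their differences get no test. In these bulk libraries, fewer cells of a type and less RNA per cell cannot be told apart.

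Trem1, the amplifying receptor, stood at 0.914, 1.06 and 0.978 CPM in WT 1, WT 2 and WT 3, and at 5.70, 2.12 and 5.43 CPM in FOXO3 KO 1, the library labelled FOXO3 KO 2 and FOXO3 KO 3. The WT libraries lay close together, FOXO3 KO 1 and 3 were far above them, and the library labelled FOXO3 KO 2 lay between. Its log2 fold change was 2.16 ± 0.42 (SE, n = 3 and 3), and 2.5 ± 0.26 without that library (n = 3 and 2).

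Trem3, its neighbour in the cluster and also a DAP12 partner in mice, had 7, 5 and 7 counts in WT 1, WT 2 and WT 3 (0.194, 0.176 and 0.196 CPM). It had 42, 13 and 52 counts (1.49, 0.474 and 1.56 CPM) in FOXO3 KO 1, the library labelled FOXO3 KO 2 and FOXO3 KO 3. As with Trem1, the library labelled FOXO3 KO 2 stood between the WT libraries and FOXO3 KO 1 and 3. Its log2 fold change came to 2.61 ± 0.53 (SE) over all 6 libraries and 2.99 ± 0.32 without that library. Trem3 passed the filter on low counts only through its FOXO3 KO libraries, since 0 of 3 WT libraries reached the 0.319 CPM that the filter asks; all 8 genes passed, and Tarm1 reached that level in 2 of 3 WT libraries.

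Treml4, a receptor for dying cells, was at 0.942, 1.24 and 0.867 CPM in WT 1, WT 2 and WT 3. It was at 2.62, 1.24 and 2.79 CPM in FOXO3 KO 1, the library labelled FOXO3 KO 2 and FOXO3 KO 3. Only FOXO3 KO 1 and 3 stood clear of WT: the library labelled FOXO3 KO 2 had 34 counts and WT 2 had 35, and the order between these libraries rests on their scaling alone. For Treml4 the log2 fold change was 1.13 ± 0.38 (SE), and 1.41 ± 0.31 without the library labelled FOXO3 KO 2.

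Tarm1 was at 0.554, 0.247 and 0.531 CPM in WT 1, WT 2 and WT 3. It was at 2.20, 0.584 and 2.82 CPM in FOXO3 KO 1, the library labelled FOXO3 KO 2 and FOXO3 KO 3. Again FOXO3 KO 1 and 3 were high, and the library labelled FOXO3 KO 2 was barely above WT 1, with 16 counts against 20. For Tarm1 the log2 fold change was 2.05 ± 0.64 (SE), and 2.48 ± 0.44 without that library. Its estimated counts were up to 0.322 from a whole number, and a gene model on the same strand, Gm44165, lies inside it (2 to 9 counts a library); how the authors' counting shared reads between them was not tested.

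**Figure D2:**
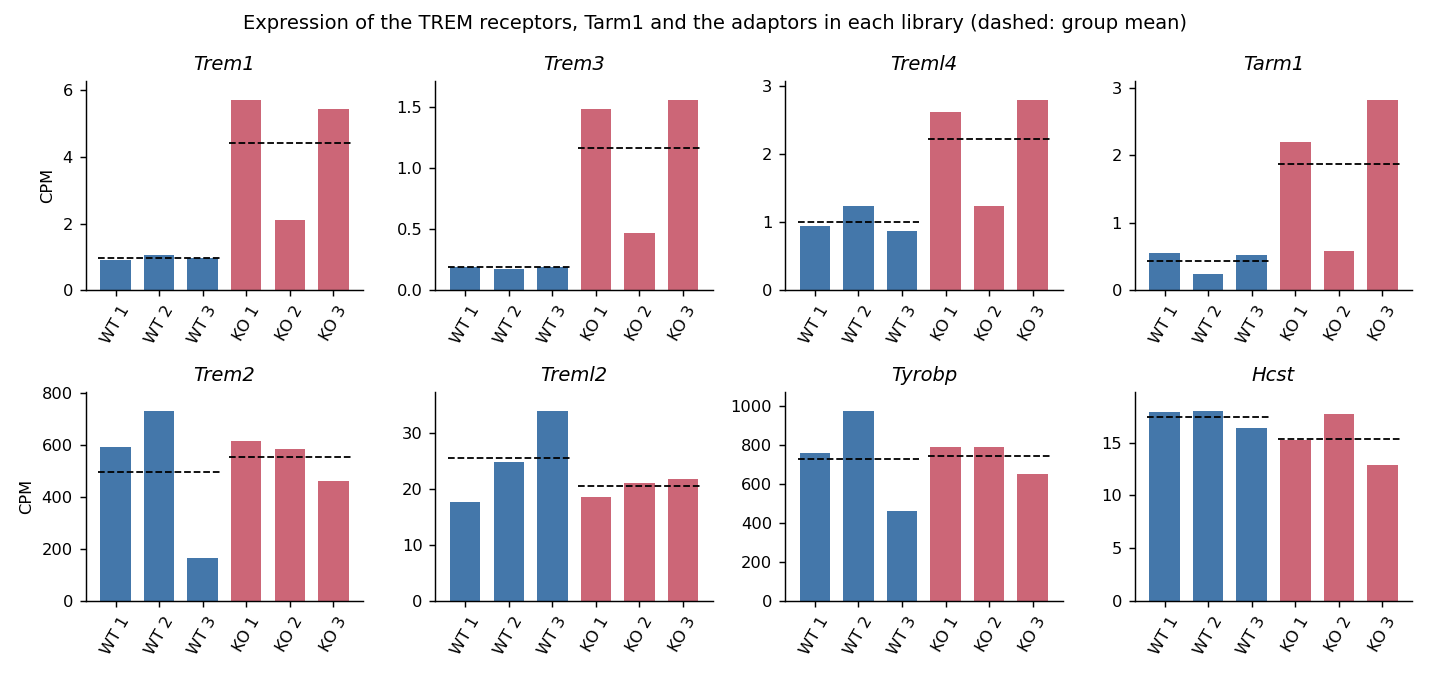
CPM of each of the 8 genes by library, 1 panel per gene with its own axis from 0, WT and FOXO3 KO libraries side by side and the group means as lines. FOXO3 KO 1 and 3 stand above all WT libraries for Trem1, Trem3, Treml4 and Tarm1, and WT 3 is lowest for Trem2 (167 CPM) and Tyrobp (461 CPM).

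These 4 receptors added up to 1.4, 1.4 and 1.37 CPM per kb in WT 1, WT 2 and WT 3. The sum was 6.34 CPM per kb in FOXO3 KO 1, 2.28 in the library labelled FOXO3 KO 2 and 6.82 in FOXO3 KO 3. The 4 were put together because they were higher in FOXO3 KO libraries, so nothing is read from the difference in their sum. Within the pair of neighbours, the ratio of Trem1 to Trem3 per kilobase was 1.57 to 1.99 in WT and 1.16 to 1.48 in FOXO3 KO libraries, so that Trem1 was the higher of the pair in 6 of 6 libraries.

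Trem2 stood at 594, 733 and 167 CPM in WT 1, WT 2 and WT 3, and at 618, 587 and 461 CPM in FOXO3 KO 1, the library labelled FOXO3 KO 2 and FOXO3 KO 3. WT 3 had 0.252 of the mean of the other WT libraries, and the FOXO3 KO libraries lay within the WT range. The log2 fold change was 0.16 ± 0.51 (SE) over all 6 libraries, 0.11 ± 0.63 without the library labelled FOXO3 KO 2 and -0.25 ± 0.16 without WT 3, so its sign turned on that WT library. Among all genes tested, 5.78% were in WT 3 at less than 0.5 times both other WT libraries, and Trem2 was the member that was.

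Tyrobp, the DAP12 adaptor of these receptors, followed Trem2. It was at 759, 977 and 461 CPM in WT 1, WT 2 and WT 3, and at 792, 789 and 653 CPM in FOXO3 KO 1, the library labelled FOXO3 KO 2 and FOXO3 KO 3. WT 3 was again lowest, and the libraries labelled FOXO3 KO lay inside the WT range. The log2 fold change was 0.02 ± 0.29 (SE), -0.02 ± 0.36 without the library labelled FOXO3 KO 2, and -0.21 ± 0.15 without WT 3. Per kilobase, Tyrobp exceeded Trem2 by 2.33 to 2.58 times in the other 5 libraries and by 5.02 times in WT 3, the library in which Trem2 was lowest.

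Hcst, the DAP10 adaptor, was at 17.9, 18 and 16.4 CPM in WT 1, WT 2 and WT 3. It was at 15.2, 17.7 and 12.9 CPM in FOXO3 KO 1, the library labelled FOXO3 KO 2 and FOXO3 KO 3. FOXO3 KO 1 and 3 were below all WT libraries, which 9.24% of all tested genes also were, and the library labelled FOXO3 KO 2 was within the WT range. The log2 fold change was -0.19 ± 0.15 (SE), and -0.31 ± 0.16 without that library.

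Treml2, a receptor of B cells and macrophages that does not use DAP12, was at 17.7, 24.8 and 33.9 CPM in WT 1, WT 2 and WT 3. It was at 18.6, 21.1 and 21.8 CPM in FOXO3 KO 1, the library labelled FOXO3 KO 2 and FOXO3 KO 3. All 3 libraries labelled FOXO3 KO lay inside the WT range, with WT 3 highest. B cell markers were highest in WT 3 as well, at 3680 CPM in sum. They were next highest in WT 1 (836 CPM), where Treml2 was lowest, and lowest in FOXO3 KO 1 (202 CPM). The part of B cells in the Treml2 level was not tested. Between the groups, Treml2 had a log2 fold change of -0.31 ± 0.24 (SE), -0.33 ± 0.30 without the library labelled FOXO3 KO 2, and -0.04 ± 0.16 without WT 3.

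**Figure D3:**
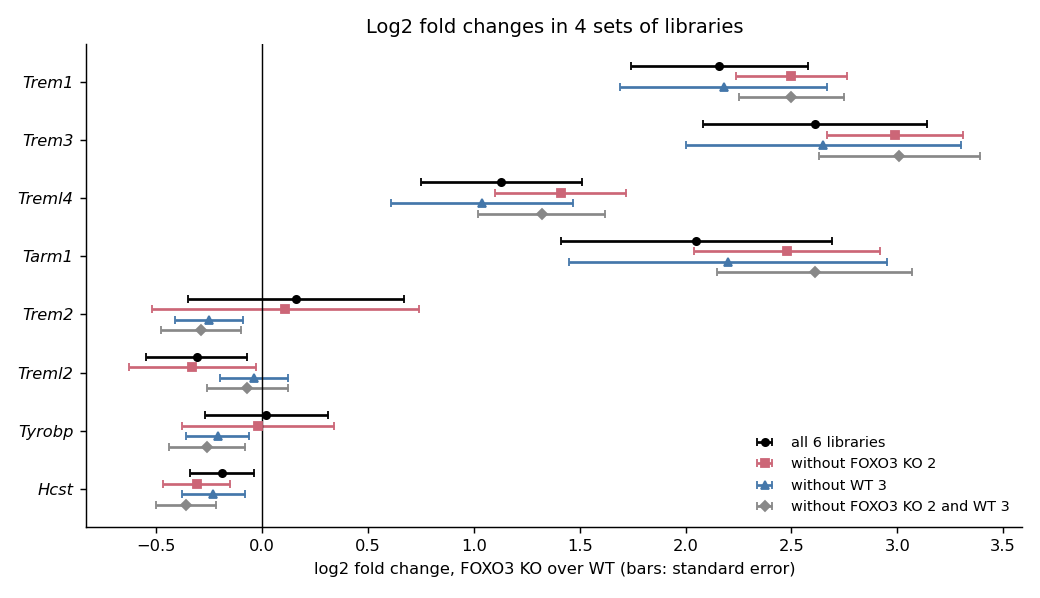
Log2 fold change of FOXO3 KO over WT with SE for each gene, over all 6 libraries and without the library labelled FOXO3 KO 2, WT 3, or both. Trem1, Trem3, Treml4 and Tarm1 are above 0 in all 4 fits, Trem2 falls below 0 when WT 3 is left out, and Tyrobp falls below 0 in the 3 fits that leave out a library.

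Across the 6 libraries 6 of the genes ran in 2 patterns. Hcst ran opposite to that of Trem1, and Treml2 opposite to that of Trem2. The patterns are described by Pearson's r of log2(CPM + 0.5) over libraries that share the groups and in which WT 3 and the library labelled FOXO3 KO 2 stand apart. Trem1 ran with Trem3 (r = 0.995), Treml4 (0.968) and Tarm1 (0.937), and Trem2 ran with Tyrobp (0.964). Between the patterns the values were lower (Trem1 with Trem2 0.235, Trem1 with Tyrobp 0.0761, Treml4 with Trem2 0.326). Hcst ran opposite to Trem1 (-0.811), Trem3 (-0.852), Treml4 (-0.825) and Tarm1 (-0.918). Treml2 ran opposite to Trem2 (-0.795) and, less closely, to Tyrobp (-0.626).

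Among all 15608 genes tested, those with a high r were fewer for Trem1 than for Trem2. These numbers are not read against each other. Trem1 had 30 to 35 counts in the WT libraries and Trem2 had 5990 to 21460, and Trem2 was far lower in WT 3 than in any other library. For Trem1, the closest after Trem3 were Slc25a12 (r = 0.9939), a mitochondrial carrier, Gm36660 (0.9938), Lin28a (0.9926) and Cxcr2 (0.9917), the chemokine receptor of neutrophils. In all, 44 genes had r over 0.95. Gm36660 (0.0831 to 0.106 CPM) and Lin28a (0.140 to 0.247 CPM) were under the filter's 0.319 CPM in every WT library. Like Trem3, they were tested only through their FOXO3 KO libraries. The value of r does not measure the size of a change: Slc25a12 was at 41.9 to 42.1 CPM in WT and 43.6 to 47.6 CPM in FOXO3 KO libraries. Tarm1 was closest to Cux1 (0.9962), Ccdc93, Dab2, Mboat1 and Alas2, with 32 genes over 0.95. Trem2 was closest to Ctsb (0.9996), the lysosomal protease cathepsin B, Fam120a, Anxa9, Cd300c2 and Leprotl1, with 1571 genes over 0.95, and Tyrobp to Ssu72 (0.9998), Cyba (0.9996), a subunit of the phagocyte oxidase, Tuba1b, Siae and Timm8b, with 1035. Cathepsin B stood at 9220, 11200 and 3530 CPM in the WT libraries and at 9680, 9270 and 7580 CPM in FOXO3 KO 1, the library labelled FOXO3 KO 2 and FOXO3 KO 3, low in WT 3 as Trem2 was.

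Some markers of neutrophils, cells known for their high Trem1, varied in the same direction as the 4 receptors. The marker list was made with earlier results of these data known, and is no independent support. Of 16 neutrophil markers, 11 were tested, 0 passed, and all 11 had log2 fold changes above 0 (median 0.73), as 48.8% of all genes tested had, with a median of -0.0073. The median of the list was 1.05 without the library labelled FOXO3 KO 2, and 0.46 without WT 3, where 10 of 11 lay above 0. Retnlg, Mmp8 and Mmp9 were at 0.44, 0.52 and 0.46 over all libraries and at -0.01, 0.10 and 0.10 without WT 3, and Cd177 was at 0.01 over all libraries. The 16 markers summed to 227, 234 and 146 CPM in WT and 522, 242 and 442 CPM in FOXO3 KO libraries in order. Csf3r, the highest of them in WT, was at 137, 139 and 116 CPM there. It was at 159, 139 and 164 CPM in FOXO3 KO libraries in order. S100a8 was at 2.4 to 11.3 CPM in WT and at 83.2, 12.9 and 59.8 CPM in FOXO3 KO libraries in order. Much of the difference in the sum thus lay in S100a8 and S100a9, and it does not describe the list as a whole. Cxcr2 was at 0.587 to 0.886 CPM in WT, at 18.7 and 14.4 CPM in FOXO3 KO 1 and 3 and at 2.23 CPM in the library labelled FOXO3 KO 2, and S100a9, which encodes a calcium-binding alarmin subunit, at 0.252 to 5.61 CPM in WT, at 164 and 117 CPM in FOXO3 KO 1 and 3 and at 6.93 CPM in the library labelled FOXO3 KO 2. The surface marker gene Ly6g and the granule genes Camp, Ngp, Mpo and Elane were at or near 0 in every library (at most 0.247 CPM). Other granule genes of the list had counts in every library: Mmp9 at 11.2 to 40.7 CPM, Mmp8 at 3.08 to 18.4, Lcn2 at 2.52 to 10.3 and Ltf at 0.335 to 1.52. The part of neutrophils in the levels of Trem1, Trem3, Treml4 and Tarm1 was not tested.

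**Figure D4:**
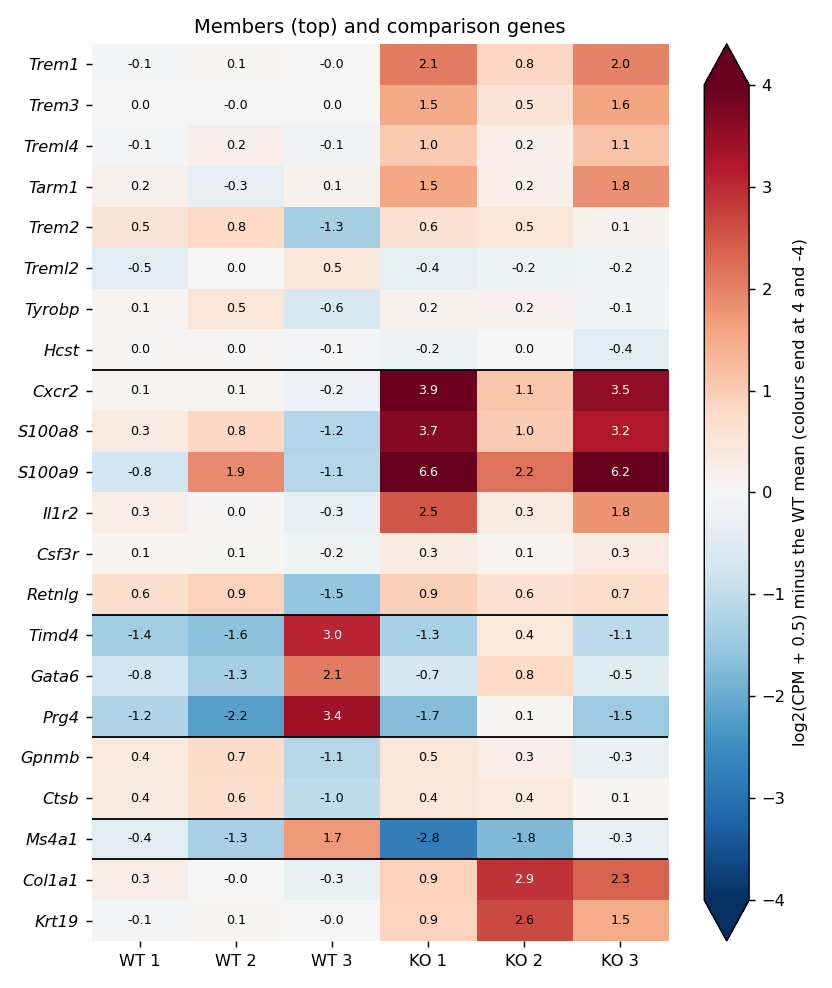
Log2(CPM + 0.5) minus the WT mean per library for the 8 members (top) and for genes chosen for comparison after their values were seen, grouped as neutrophil (Cxcr2 to Retnlg), resident macrophage (Timd4, Gata6, Prg4), Gpnmb and Ctsb, the B cell gene Ms4a1, and mesothelial or fibroblast genes. FOXO3 KO 1 and 3 are high for Trem1, Cxcr2, S100a8, S100a9 and Il1r2 but not apart from WT for Retnlg, and WT 3 is low for Trem2 and Ctsb and high for the resident macrophage genes and Ms4a1; colours end at 4 and -4.

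Of 8 markers of mesothelial cells or fibroblasts, 7 were tested, 0 passed, and those 7 were also higher. The mesothelial gene Msln did not pass the filter on low counts and was not higher. It was at 0.138, 0 and 0.224 CPM in WT and at 0, 0.073 and 0 CPM in FOXO3 KO libraries in order. All 7 lay above every WT library in all 3 libraries labelled FOXO3 KO, as 7.0% of all genes tested did. In edgeR's quasi-likelihood test all 7 reached an unadjusted p under 0.05 with a fold over 1.5, as 3.28% of all genes tested did upward. This list too was made with earlier results of these data known. The paper reports Col1a1, Col1a2 and Krt19 as raised in these macrophages, so these counts are no independent support. Their median log2 fold change was 2.17, and 1.37 without the library labelled FOXO3 KO 2. The 8 summed to 29.7 to 49.4 CPM in WT and to 74.4, 330 and 146 CPM in FOXO3 KO 1, the library labelled FOXO3 KO 2 and FOXO3 KO 3. The sum was highest in the library labelled FOXO3 KO 2, where the 4 receptors were lower than in FOXO3 KO 1 and 3. Their part was not tested.

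Other genes of the cluster were read beside the members. A530064D06Rik, also on chromosome 17 (chr17:48149126-48167275, minus strand) and listed by RefSeq with the synonym Trem4, was chosen after its values were seen. It stood at 11.9, 12.4 and 7.13 CPM in WT and at 20.6, 15.4 and 27.6 CPM in FOXO3 KO 1, the library labelled FOXO3 KO 2 and FOXO3 KO 3, higher in all 3 libraries labelled FOXO3 KO than in WT, with a log2 fold change of 1.02 ± 0.30 (SE) and an adjusted p of 0.725 in edgeR's quasi-likelihood test. Of the 4 listed other genes of the cluster, 3 were in the table and none passed: 9830107B12Rik at 0.86 ± 0.63, B430306N03Rik at 0.23 ± 0.29 and Treml1, the platelet receptor, at 0.12 ± 0.60.

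The wider pathway was read from 9 lists holding 129 measured genes, 123 of them tested; 0 passed the FDR and fold threshold in either direction, so what follows gives values and the count at an unadjusted p under 0.05 and a fold over 1.5, which 3.28% of all tested genes reached upward and 0.999% downward.

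The cytokine list holds genes that TREM1 signalling raises, most of them cytokines and chemokines. It had the largest share upward among the 9 lists, 5 of 13 tested. A log2 fold change above 0 was seen in 13 of 13 (median 0.58), beside 48.8% of all genes tested. Of the 16 genes listed, Cxcl3 (mean 0.400 CPM in WT, 0.285 in FOXO3 KO libraries), Csf2 and Csf3 did not pass the filter. Without WT 3, 12 of 14 tested lay above 0 and the median was 0.45. Without the library labelled FOXO3 KO 2, 12 of 14 lay above 0 and the median was 0.60. The list was made with the values of Il1b and others known, and is no independent support. The part of TREM1 in these values was not tested. Il1b, the pyrogenic cytokine, was at 4.54, 7.34 and 3.58 CPM in WT and at 29.1, 8.76 and 26.7 CPM in FOXO3 KO libraries in order, with a log2 fold change of 2.06 ± 0.51. The monocyte attractants Ccl7 (1.77 ± 0.51) and Ccl2 (1.57 ± 0.32) had the next largest values. Ptgs2, which encodes an enzyme, at 1.30 and Tnf at 0.79 were the others of the 5. As with Trem1, the library labelled FOXO3 KO 2 lay between the WT libraries and FOXO3 KO 1 and 3 for Il1b, Ccl2 and Ccl7, but not for Tnf, where it was highest at 8.36 CPM.

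Genes proposed as ligands of receptors in this pathway, not of TREM receptors alone, reached that threshold upward in 4 of 12 tested. Their median was 0.62, with 8 above 0 and 4 below. The list was made with earlier results of these data known, and is no independent support. Those that reached it were Col1a1 (2.33 ± 0.50), Clu (1.74 ± 0.48), H60b (1.26 ± 0.49) and Raet1e (1.11). H60b and Raet1e encode ligands of NKG2D, a receptor that is not a member. H60b was at 0.222, 0.282 and 0.0839 CPM in WT 1, WT 2 and WT 3, under the 0.319 CPM that the filter asks. As with Trem3, it passed the filter on low counts only through its FOXO3 KO libraries, so nothing is read from its place among the 4. Without the library labelled FOXO3 KO 2, Clu was at 1.09 ± 0.32 and Col1a1 at 1.86 ± 0.46. Col1a1 also stands in the list of mesothelial cell or fibroblast markers, and both it and Clu, a TREM2 ligand, were highest in the library labelled FOXO3 KO 2. The 4 below 0 included Cirbp (-0.42 ± 0.18), Hmgb1 (-0.15 ± 0.16) and Pglyrp1, a TREM1 ligand, at -0.31 ± 0.32. The last was Apoe, an abundant lipid carrier and TREM2 ligand, at -0.08 with 4180 to 5200 CPM in every library.

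Signalling molecules downstream of DAP12 showed no common direction: 0 of 27 reached the unadjusted threshold, 14 lay above 0 and 13 below, and the median was 0.00. Fgr, a Src-family kinase, had the highest value (0.48 ± 0.22) and Dok3, an inhibitory adaptor, the lowest (-0.50 ± 0.32), with Syk itself at -0.27 ± 0.15. In all 3 FOXO3 KO libraries, 3 of the 27 lay below every WT library and 2 above, as 5.36% and 7.0% of all genes tested did. Syk was 1 of the 3, at 767, 749 and 909 CPM in WT and 627, 666 and 712 CPM in FOXO3 KO libraries in order. Among 15 other receptors that use DAP12 or DAP10, 1 reached the unadjusted threshold. It was Siglech (1.43 ± 0.45), a receptor of plasmacytoid dendritic cells that stands in the dendritic cell list too. The median of these 15 receptors was 0.22, and 0.04 without WT 3.

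In the list of the Fc receptor gamma chain, the partner of Tarm1, and its receptors, 2 of 10 tested genes reached the unadjusted threshold. They were Clec4n, which encodes Dectin-2, at 1.14 ± 0.38, and Clec4e, which encodes Mincle, at 0.67 ± 0.26. Clec4e was at 43.8, 43.5 and 81.9 CPM in WT and at 89.9 to 90.2 CPM in FOXO3 KO libraries. Without WT 3, Clec4e was at 1.06 ± 0.07 and Clec4n at 0.90 ± 0.32. The list median was 0.21, and 0.03 without WT 3. Fcer1g, the gene of the chain itself and 1 of the 10, was at 394, 462 and 214 CPM in WT and at 458, 416 and 378 CPM in FOXO3 KO libraries in order, a log2 fold change of 0.23. In WT 3 the chain was lowest, as Tyrobp was. Of 11 inhibitory receptors with an inhibitory tyrosine motif and 14 shedding proteases and MS4A partners, 0 reached the threshold, with medians of 0.28 and 0.13, which were -0.06 and -0.01 without WT 3. The sheddases Adam10 and Adam17 were at 0.13 and 0.21.

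The programme of lipid-associated macrophages that depends on TREM2 followed WT 3 more than the groups. Its 18 genes summed to 37400, 48600 and 14500 CPM in WT 1, WT 2 and WT 3 and to 43400, 37300 and 29800 CPM in FOXO3 KO libraries in order. Csf1, the macrophage growth factor, was the gene that reached the unadjusted threshold (0.76 ± 0.21), and Gpnmb, a lysosomal glycoprotein, was at -0.02 ± 0.53. The median was 0.13 over all libraries and -0.16 without WT 3, so its sign turned on that library.

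**Figure D5:**
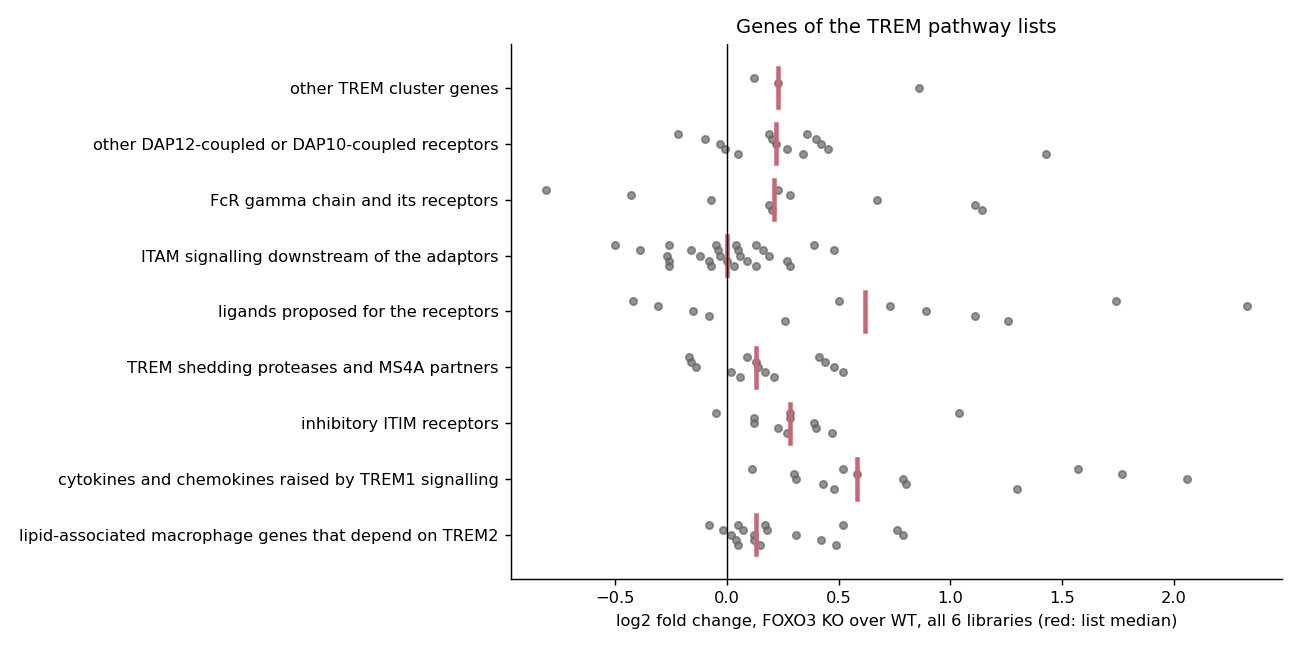
Log2 fold changes of FOXO3 KO over WT for the tested genes of each pathway list, 1 point per gene and a bar at the median, all 6 libraries. The medians of the cytokine list (0.58) and the ligand list (0.62) are the farthest from 0 and that of the ITAM signalling list is at 0.00.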

How the data were processed

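RNA-seq of peritoneal cells (3 WT, 3 FOXO3 KO libraries, paired reads of 76 bp) was analysed from the table of estimated counts that the authors deposited, without normalization, for 54648 gene symbols. The submitters' processing notes name STAR 2.6.1d, kallisto 0.46.0, DESeq2 and mm10, without their roles. Of the values, 81.4% were within 0.01 of a whole number, and they were rounded before fitting. Library totals of 28083393 to 36424117 counts stand behind these values, and the members' SEs cover counting error and the spread between libraries.

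FOXO3 KO was compared with WT in edgeR 4.0.16 under R 4.3.3 (filterByExpr, TMM, quasi-likelihood test, Benjamini-Hochberg over all genes; common dispersion 0.103), and Python 3.11.15 made the tables. Fold changes and SE of the members come from that fit. The fits were tested on simulated data. The 8 members, the lists of pathway genes and markers, and their alternatives were chosen with earlier results of these data known. Named genes were the members, Foxo3, the 3 largest increases and decreases of each list and the 5 closest genes to 4 members; other genes were chosen after their values were seen, as were the list genes named beyond these. Marker lists were made for 11 cell types. Protein sequences were not used here.

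Alternatives were the edgeR likelihood ratio test, DESeq2 1.42.0, limma-voom (limma 3.58.1), 3 other scalings, 2 other filters, a replicate block, a covariate for Xist, leaving out each library, and median instead of longest transcript length. Libraries with the same replicate number deviated with correlations of 0.256, -0.0722 and 0.524, so the numbers were not taken as pairs.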

Additional observations from a re-analysis of the deposited data

How the results depend on the processing

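The count of genes past an FDR of 0.05 and a fold of 1.5 was 0 in edgeR's quasi-likelihood test (668 at an unadjusted p under 0.05 with that fold, 512 higher and 156 lower), 109 in edgeR's likelihood ratio test (102 higher, 7 lower), 124 in DESeq2 (118 higher, 6 lower) and 0 in limma-voom. It was 0 to 0 when each library was left out in turn, and 4 (3 higher, 1 lower) when both the library labelled FOXO3 KO 2 and WT 3 were left out, an alternative chosen after seeing the data. Of the pathway genes, 0 passed in the quasi-likelihood test, 0 to 0 with each library left out, and 3 in the likelihood ratio test and 3 in DESeq2, both times Ccl2, Col1a1 and Il1b. The members are not counted among the pathway genes. With the replicate number as a block, 0 genes passed, and the block changed no other call. The sources used here do not say whether libraries with the same number belong together. Over 17 alternatives the log2 fold change was 1.94 to 2.5 for Trem1, 2.35 to 3.01 for Trem3, 0.93 to 1.41 for Treml4, 1.63 to 2.61 for Tarm1, -0.53 to -0.04 for Treml2 and -0.36 to -0.08 for Hcst, none of which changed sign. For Trem2 it was -0.29 to 0.55, with the opposite sign without WT 3, alone or with the library labelled FOXO3 KO 2, and for Tyrobp -0.26 to 0.29, with the opposite sign in 4, those without WT 3, FOXO3 KO 1, the library labelled FOXO3 KO 2, or both outlying libraries. The cause was not tested. Trem3 had 7, 5 and 7 counts in WT, which limits its WT level; median transcript lengths raised the WT level of Treml4 from 0.582 to 1.21 CPM per kb.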
